A study of Mus musculus with 6 samples.

Results

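The genes described here make up the protein folding and quality control machinery of the endoplasmic reticulum (ER), and were taken from a fixed list of 41 mouse symbols. All 41 were found by Entrez ID among the 13426 genes measured in mouse bone marrow B cell progenitors at the early large pre-B stage (early LPre-B). By role they comprised 11 ER chaperones and co-chaperones, 2 lectin chaperones, 5 disulfide isomerases and oxidases, 9 genes of ER-associated degradation (ERAD), 5 sensors and transducers of the unfolded protein response (UPR) and 9 genes of the translocon. The rule names genes and no measured value, although the list was drawn up with earlier results of these data known.

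Secretory and membrane proteins enter the ER through the Sec61 translocon and are folded there by BiP (the product of *Hspa5*), by GRP94 (*Hsp90b1*), by the lectins calnexin and calreticulin and by protein disulfide isomerases. Proteins that do not fold are moved back to the cytosol and degraded, a route that centres on the ubiquitin ligase HRD1 (*Syvn1*) and its partner SEL1L. When unfolded proteins accumulate, IRE1 (*Ern1*), PERK (*Eif2ak3*) and ATF6 sense them and raise the transcription of chaperone and ERAD genes, in part through the transcription factor XBP1. In the B lineage the system is known above all from plasma cells, which secrete large amounts of antibody.

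Total RNA was sequenced from sorted cells of 2 genotypes, with 3 libraries per group. Control (Ctrl) mice were Upf1 Flox/Flox, Mb1 +/+, and Upf1-cKO mice were Upf1 Flox/Flox, Mb1 Cre/+, so that both carried the floxed *Upf1* alleles and neither received a treatment. Cre was expressed from the Mb1 (*Cd79a*) locus, which restricts it to the B lineage and leaves the cKO mice with a single unmodified *Cd79a* allele. UPF1 is an RNA helicase required for nonsense-mediated mRNA decay (NMD), and the comparison asks which transcripts change when it is removed at this stage. Per the methods of the study the mice were adult and age-matched and of both sexes, and replicates were described there as independent, although the labels do not tie a library to an animal.

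Values are normalised reads, meaning reads per 1e6 reads of an effective library size set by the authors. Recovered reads totalled between 9732498 and 11006834 per library, and a member had between 29 and 10233 reads in a library. *Upf1* itself was at 260.0, 203 and 259 normalised reads in Ctrl libraries 1 to 3 and at 308, 283 and 299.7 in the libraries labelled cKO (log2 fold change 0.31, SE 0.089, adjusted p 0.00696). The gene-level value was thus not lower in the cKO-labelled libraries, and because it sums the whole gene it does not resolve the floxed exons. Groups follow the labels, and "higher" and "lower" mean in the libraries labelled cKO relative to Ctrl.

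The sorted cells carried B lineage markers, with all 9 listed genes detected and summed levels from 3396 to 3508 in Ctrl and from 2526 to 2638 in cKO-labelled libraries. Of these, *Cd79a*, whose locus carries Cre on 1 allele in the cKO genotype, fell from 221 ± 11.4 to 73.3 ± 1.85 (SD, n = 3), the direction that the labels give. The 9 neutrophil markers summed to 123 in Ctrl library 1, to 19.0 and 14.7 in the other Ctrl libraries and to between 331 and 464 in the cKO-labelled libraries, so that 1 Ctrl library stood apart from its group. Summed levels of 7 plasma cell markers were between 829 and 900.3 in Ctrl and between 314 and 350.1 in cKO-labelled libraries. *Irf4* (466 to 121) and *Slamf7* (220.2 to 72.2) held most of that sum, while *Xbp1* and *Prdm1* did not pass the test. *Jchain* (2.01 to 0.167) and *Prdm1* (0.865 to 0.576) were near the floor in both groups. The 4 plasmacytoid dendritic markers, 3 of them higher, summed to between 140.1 and 151 in Ctrl and between 175 and 189 in cKO-labelled libraries. Among the other lists, 1 of 5 macrophage and monocyte markers was higher (*Lyz2*, 35.1 to 58.8), as was the 1 measured T and NK marker (*Klrb1c*, 0.595 to 3.20), and 0 of 3 erythroid markers passed. The part of these differences in the results for ER genes was not tested. Without Ctrl library 1, 6 members were higher and 12 were lower in place of the 8 and 11 given below. In bulk samples, fewer cells of a type and less RNA per cell cannot be told apart.

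The promoters of ER genes hold known regulatory elements, which are shown here for the 4 called members that carry one and for 2 of the 8 carriers that did not pass the test. The ER stress response element (ERSE) consists of CCAAT and CCACG with 9 bases between them and is bound by NF-Y together with ATF6 or XBP1. ERSE-II, a shorter relative, consists of ATTGG and CCACG with 1 base between them. Windows from 250 bases before to 50 bases after the annotated start were taken from RefSeq (GRCm38.p6) for 34 of the 41 members and searched on both strands. Sequences of 6 members are given 5′ to 3′ on the strand of the gene, with the element in capitals and 20 bases on either side. *Hspa5* and *Pdia6* did not pass the test described below, *Dnajc3* and *Derl3* rose, and *Syvn1* and *Herpud1* fell. In *Derl3* the element lies in the opposite orientation to the gene.
*Hspa5* (ERSE), chr2:34772005-34772063, plus strand: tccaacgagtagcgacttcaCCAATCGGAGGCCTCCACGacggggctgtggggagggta
*Pdia6* (ERSE), chr12:17266471-17266529, plus strand: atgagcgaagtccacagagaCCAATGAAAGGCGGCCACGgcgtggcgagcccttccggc
*Dnajc3* (ERSE), chr14:118937807-118937865, plus strand: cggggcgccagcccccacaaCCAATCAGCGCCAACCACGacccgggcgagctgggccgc
*Derl3* (ERSE), chr10:75893222-75893280, plus strand: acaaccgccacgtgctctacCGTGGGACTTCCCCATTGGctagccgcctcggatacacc
*Syvn1* (ERSE), chr19:6046512-6046570, plus strand: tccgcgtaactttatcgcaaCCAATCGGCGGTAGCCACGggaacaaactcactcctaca
*Herpud1* (ERSE-II), chr8:94386357-94386407, plus strand: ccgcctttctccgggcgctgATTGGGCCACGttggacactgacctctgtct

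ERSE was present in 10 of the 34 members (29.4%), counted by gene, and in 39 of 32851 promoters of the same length (0.119%). The second share is counted by promoter and includes the 35 promoters of the members. The carriers were *Calr*, *Canx*, *Creld2*, *Derl3*, *Dnajc3*, *Ero1b*, *Hsp90b1* (2 copies), *Hspa5*, *Pdia6* and *Syvn1*. ERSE-II was found in *Herpud1* and *Dnajb11* among the members, and in 12 promoters overall (0.0365%). Neither the UPR element TGACGTGG (0.676% of promoters) nor the C/EBP-ATF element TGATGCAAT (0.192%) was present in a member promoter. A match is a string of letters and not a measured binding site, and no binding was measured here.

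Of the 41 members, 8 were higher, 11 were lower and 22 did not pass an adjusted p of 0.05 (limma on log2(value + 1), Benjamini-Hochberg over all 13426 genes). The called share of 46.3% lay below that of all genes, of which 52.7% were called, 27.7% higher and 25.0% lower. The members had a median log2 fold change of 0.00, and over all genes it was 0.01. Changes were mostly modest, with 26 of 41 members within 20% of their Ctrl mean. In all, 9 members were called with a log2 fold change of 0.5 or more in size (22.0% of members, against 34.7% of all genes). In 19 members the 2 groups of libraries did not overlap, 7 with the cKO-labelled libraries above (30.9% of all genes) and 12 with them below (28.0%).

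Among chaperones, lectins and disulfide enzymes 5 of 18 members were higher and 0 were lower, and among ERAD genes, sensors and translocon genes 3 of 23 were higher and 11 were lower, beside 27.7% higher and 25.0% lower of all genes. The share of higher members in the folding roles (27.8%) was thus near that of all genes. With each library centred on its median the folding roles had 1 higher and 1 lower member, and with scaling to total reads they had 13 and 0, while the other roles had 2 and 13 or 7 and 8. The folding roles also moved with single libraries. Without Ctrl library 1, *Hyou1* and *Sdf2l1* lost their calls and *Dnajb11* was called lower. Without Ctrl library 2, *Hspa5*, *Manf* and *Calr* were called higher as well. No test of the difference between roles was made.

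**Figure D1:**
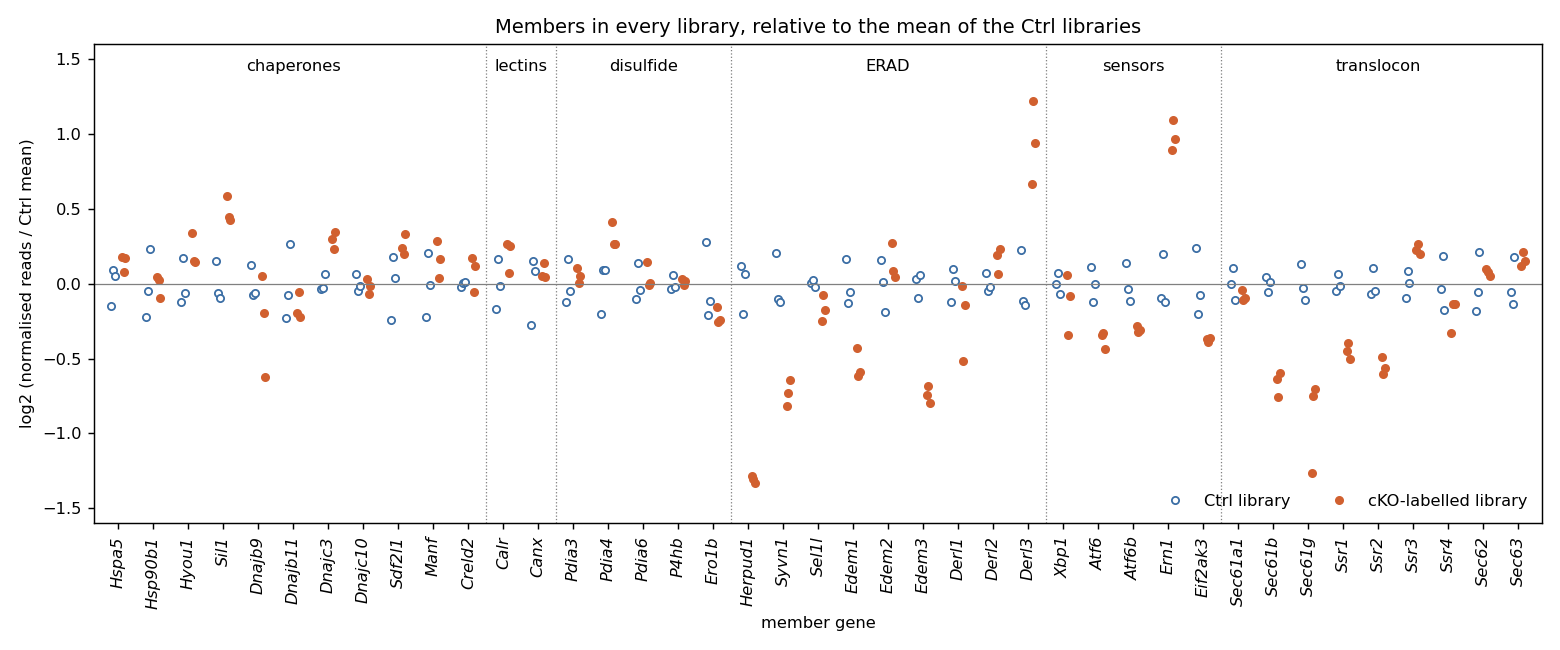
Each point is 1 library, plotted as the log2 ratio of its normalised reads to the mean of the 3 Ctrl libraries, for the 41 members ordered by role along the horizontal axis. *Herpud1*, *Syvn1*, *Edem1*, *Edem3*, *Sec61b*, *Sec61g*, *Ssr1* and *Ssr2* lay below the Ctrl libraries in all 3 cKO-labelled libraries, and *Ern1*, *Derl3* and *Sil1* lay above.

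Of the 11 ER chaperones and co-chaperones, 4 rose by at most 0.47 on the log2 scale and 7 did not pass the test. *Hspa5* (Entrez ID 14828, chromosome 2, 34772090 to 34776529, GRCm38), which encodes BiP and is the usual readout of the UPR, was at 451, 531 and 516 normalised reads in Ctrl and 565, 528 and 562 in cKO-labelled libraries. These groups overlapped, and the log2 fold change of 0.15 (95% interval -0.01 to 0.31, adjusted p 0.112) did not pass the threshold. *Hspa5* was called higher with quantile normalization (0.35, adjusted p 0.00044), with scaling to total reads (0.35, adjusted p 0.0016) and without Ctrl library 2 (0.19, adjusted p 0.0436), while its log2 fold change was 0.07 without Ctrl library 1 and 0.04 with median centring. *Hsp90b1*, the ER member of the HSP90 family, had 547, 617 and 751 normalised reads in Ctrl and 658, 649.6 and 597 in cKO-labelled libraries, a log2 fold change of 0.00 with an interval from -0.20 to 0.20 (adjusted p 0.98), and was called higher with quantile normalization (0.22, adjusted p 0.0326).

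*Sil1* (Entrez ID 81500), a nucleotide exchange factor for BiP, was at 24.0, 20.7 and 20.2 normalised reads in Ctrl and 32.3, 29.4 and 29.0 in cKO-labelled libraries. The groups did not overlap and the log2 fold change was 0.47 (SE 0.12, adjusted p 0.00211). The second exchange factor, *Hyou1*, had 252, 309.6 and 263 normalised reads against 348, 306 and 303, with 1 Ctrl library above 2 of the cKO-labelled libraries (log2 fold change 0.22, SE 0.085, adjusted p 0.0402). This call was close to the threshold and was lost under 11 of 18 alternative settings, among them edgeR (adjusted p 0.0585) and DESeq2 (adjusted p 0.0785).

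*Dnajc3*, a J-domain co-chaperone that also inhibits PERK, had 105, 105 and 112 normalised reads in Ctrl and 132, 126 and 136 in cKO-labelled libraries, without overlap (log2 fold change 0.29, SE 0.078, adjusted p 0.00406), a call that was lost with median centring (0.18, adjusted p 0.052). *Sdf2l1*, part of a complex with the J-domain protein ERdj3, had 46.7, 62.5 and 56.8 against 65.3, 63.6 and 69.6 (0.26, SE 0.10, adjusted p 0.0396). The Ctrl and cKO-labelled values of *Sdf2l1* were separated by about 1 normalised read at their closest. The call for *Sdf2l1* was lost under 7 alternatives and, without Ctrl library 1, its log2 fold change was 0.15 (adjusted p 0.192).

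The other chaperones did not pass the test. Log2 fold changes were -0.23 for *Dnajb9* (ERdj4), -0.14 for *Dnajb11* (ERdj3), -0.02 for *Dnajc10* (ERdj5), 0.17 for *Manf* and 0.07 for *Creld2*. Leaving out 1 library brought *Dnajb11* (-0.25 without Ctrl library 1) and *Manf* (0.28 without Ctrl library 2) past the threshold. The 11 chaperones together summed to between 1740.3 and 2075 normalised reads in Ctrl and to between 2026 and 2150.0 in cKO-labelled libraries, ranges that overlapped.

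Log2 fold changes were between 0.09 and 0.20 for the 2 lectin chaperones and between -0.20 and 0.32 for the 5 disulfide enzymes. *Calr* (calreticulin) had a log2 fold change of 0.20 (interval 0.02 to 0.38, adjusted p 0.0612) and *Canx* (calnexin), the member with the most reads, 0.09 (adjusted p 0.434). Both were called higher with quantile normalization (0.31 and 0.36) and with scaling to total reads (0.40 and 0.29), and *Calr* also without Ctrl library 2 (0.28, adjusted p 0.00977) or cKO-labelled library 2 (0.26, adjusted p 0.0431). *Pdia4* (ERp72), a disulfide isomerase, was at 109, 134 and 133 normalised reads in Ctrl and 167, 151 and 151 in cKO-labelled libraries and rose by 24.5% (log2 fold change 0.32, SE 0.089, adjusted p 0.00556). The call for *Pdia4* was lost with eBayes without trend (adjusted p 0.0529) and with median centring (0.21, adjusted p 0.0537). The isomerases *Pdia3* (0.06), *Pdia6* (0.05) and *P4hb* (0.02) had intervals within 0.25 log2 units of 0 and did not pass, and neither did the oxidase gene *Ero1b* (-0.20, adjusted p 0.185). The Ctrl spread of *P4hb* was small, with 129, 137 and 129.5 normalised reads against 135, 131 and 134.

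**Figure D2:**
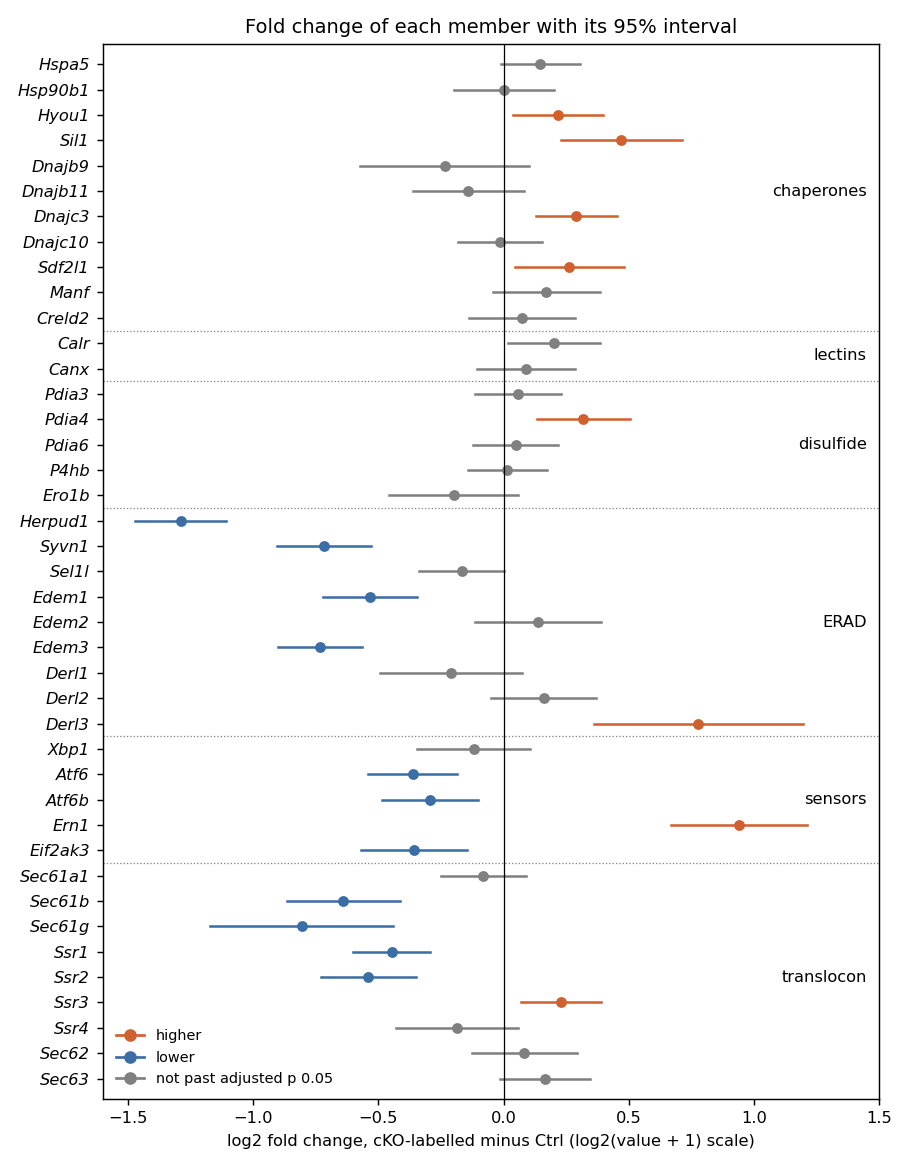
Log2 fold change (cKO-labelled minus Ctrl, horizontal axis) of each member with its 95% interval from limma, grouped by role. Intervals of *Herpud1* (-1.47 to -1.11) and *Ern1* (0.67 to 1.21) lay farthest from 0 on either side, while *Hspa5* and *Hsp90b1* had intervals that included 0.

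ERAD genes held the largest fall among the members. *Herpud1* (Entrez ID 64209, chromosome 8, 94386429 to 94395371) encodes HERP, a membrane protein that recruits substrates and ubiquilin to the HRD1 complex. It was at 222, 177 and 214 normalised reads in Ctrl and at 84.0, 82.6 and 81.4 in cKO-labelled libraries, and fell by 59.5% (log2 fold change -1.29, SE 0.087, adjusted p 1.04e-09). The 3 cKO-labelled libraries were within 3 normalised reads of each other and lay far below each Ctrl library. Within a library, the ratio of *Herpud1* to *Hspa5*, which does not depend on scaling between libraries, was 0.413 ± 0.0791 (SD, n = 3) in Ctrl and 0.150 ± 0.00600 (SD, n = 3) in cKO-labelled libraries.

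*Syvn1* (Entrez ID 74126, chromosome 19, 6046576 to 6053718), which encodes the ligase HRD1, had 264, 213 and 210.2 normalised reads in Ctrl and 130.1, 138 and 147 in cKO-labelled libraries. It fell by 39.6% without overlap of the groups (log2 fold change -0.72, SE 0.090, adjusted p 2.28e-06), although its locus overlaps *Mrpl49* and counting ignored strand. *Sel1l*, which stabilises HRD1, fell short of the threshold with 101, 102 and 98.8 normalised reads against 84.5, 95.2 and 88.8 (-0.17, interval -0.34 to 0.00, adjusted p 0.0921). *Sel1l* was called lower with median centring (-0.27, adjusted p 0.00813) and with the length and GC trend removed (-0.27, adjusted p 0.00642). Across the alternative scalings its log2 fold change ran from -0.27 to 0.04. The within-library ratio of *Syvn1* to *Sel1l* was 2.28 ± 0.298 in Ctrl and 1.55 ± 0.0994 in cKO-labelled libraries.

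The EDEM genes, whose products trim mannose from glycoproteins that are to be degraded, did not move together. *Edem1* (Entrez ID 192193, chromosome 6, 108824045 to 108859356) had 154, 126 and 132 normalised reads in Ctrl and 102, 89.3 and 91.2 in cKO-labelled libraries (log2 fold change -0.53, SE 0.090, adjusted p 6.41e-05). *Edem3* (Entrez ID 66967, chromosome 1, 151755344 to 151822328) had 160.2, 147 and 163 against 93.9, 97.6 and 90.4 (-0.73, SE 0.079, adjusted p 3.67e-07). Groups were apart for both genes, of which *Edem1* fell by 31.3% and *Edem3* fell by 40.1%. *Edem2* was at 25.3 ± 3.01 and 27.8 ± 2.41 (SD, n = 3) and did not pass (0.14, adjusted p 0.358).

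The Derlins, which form part of the channel through which substrates leave the ER, differed as well. *Derl1* (-0.21, adjusted p 0.200) and *Derl2* (0.16, adjusted p 0.189) did not pass. *Derl3* (Entrez ID 70377), the least abundant ERAD gene, had 3.77, 2.98 and 2.93 normalised reads in Ctrl and 5.12, 7.53 and 6.20 in cKO-labelled libraries (0.78, SE 0.20, adjusted p 0.00291). Its value rested on between 29 and 83 reads per library. The 9 ERAD genes summed to between 853 and 991 normalised reads in Ctrl and to between 590.4 and 593 in cKO-labelled libraries, so that the *Derl3* rise of about 3 normalised reads was small beside the falls of the abundant members.

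**Figure D3:**
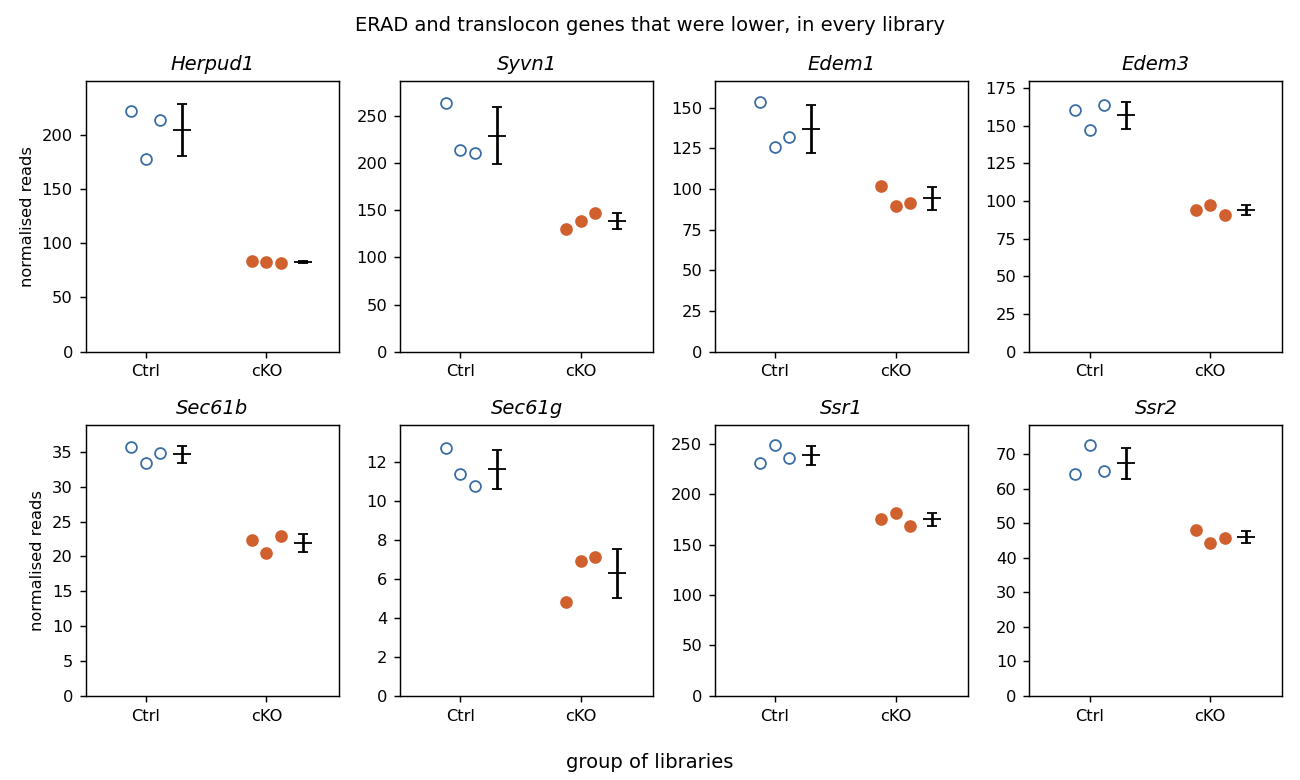
Normalised reads (vertical axes, each from 0) of the 4 lower ERAD genes and the 4 lower translocon genes in each of the 3 Ctrl libraries (open circles) and 3 cKO-labelled libraries (filled circles), with mean and SD beside them. No cKO-labelled library reached the lowest Ctrl library in any of the 8 genes.

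Among the stress sensors, *Ern1* rose, 3 others fell and *Xbp1* did not pass the test. *Ern1* (Entrez ID 78943, chromosome 11, 106397620 to 106487796) encodes IRE1, the kinase and endonuclease that splices *Xbp1* mRNA, and its own mRNA has been described as a substrate of NMD. It was at 12.8, 15.7 and 12.6 normalised reads in Ctrl and 25.4, 29.2 and 26.7 in cKO-labelled libraries, a rise of 97.9% (log2 fold change 0.94, SE 0.13, adjusted p 7.39e-06). Each cKO-labelled library lay at least 9 normalised reads above the highest Ctrl library. Per kilobase of transcript, *Ern1* was the lowest of the 41 members at the Ctrl level, with 1.97 normalised reads per kilobase in Ctrl and 3.90 in cKO-labelled libraries.

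*Eif2ak3*, which encodes the translation-repressing kinase PERK, had 112, 82.3 and 89.8 normalised reads in Ctrl and 73.1, 72.4 and 73.6 in cKO-labelled libraries (-0.36, SE 0.10, adjusted p 0.0057). Its highest value was in Ctrl library 1, and without that library the log2 fold change was -0.23 (adjusted p 0.029). *Atf6*, whose product is cleaved in the Golgi to release a transcription factor, had 112, 95.1 and 103 against 81.4, 82.4 and 76.6 (-0.36, SE 0.085, adjusted p 0.00152). Its paralogue *Atf6b* had 75.5, 66.8 and 63.2 against 56.4, 54.9 and 55.3 (-0.29, SE 0.091, adjusted p 0.0109). In all 3 genes the groups did not overlap. *Eif2ak3* fell by 22.8%, *Atf6* fell by 22.5% and *Atf6b* fell by 19.0%. These 3 calls depended on the scaling, and that of *Eif2ak3* was also lost with eBayes without trend (adjusted p 0.0517). When libraries were scaled to their total reads, the median over all genes shifted from 0.01 to 0.19 (log2), and the values were -0.16 (adjusted p 0.235) for *Eif2ak3*, -0.16 (adjusted p 0.157) for *Atf6* and -0.09 (adjusted p 0.418) for *Atf6b*.

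*Xbp1* did not pass the test, with 45.7, 48.2 and 43.6 normalised reads in Ctrl and 47.8, 36.1 and 43.4 in cKO-labelled libraries (-0.12, interval -0.34 to 0.11, adjusted p 0.372). Among the alternatives it was called only with the length and GC trend removed, where it was lower (-0.25, adjusted p 0.0433). A gene-level count sums the spliced and unspliced forms, so it does not show whether IRE1 cleaved this mRNA. Ratios within a library set the sensors against each other without any scaling. *Ern1* relative to *Eif2ak3* was 0.148 ± 0.0390 in Ctrl and 0.371 ± 0.0285 in cKO-labelled libraries, and relative to *Atf6* it was 0.134 ± 0.0275 and 0.338 ± 0.0228. *Atf6* relative to *Atf6b* was 1.51 ± 0.110 and 1.44 ± 0.0587, whose ranges of 1 SD overlapped.

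**Figure D4:**
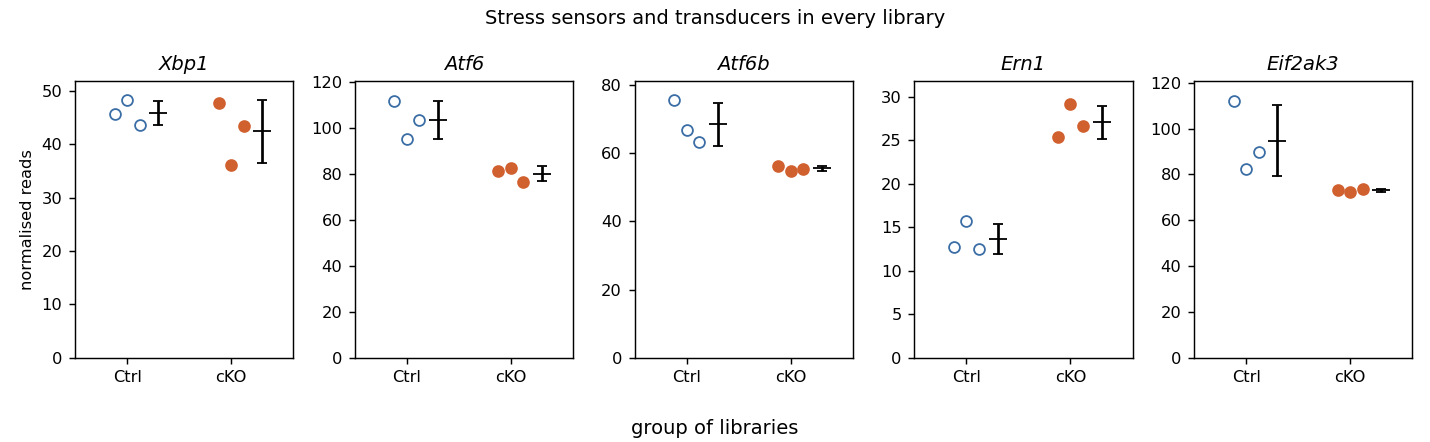
Normalised reads (vertical axes, each from 0) of the 5 sensors and transducers in each of the 3 Ctrl libraries (open circles) and 3 cKO-labelled libraries (filled circles), with mean and SD beside them. *Ern1* went from 13.7 ± 1.75 to 27.1 ± 1.91, *Atf6*, *Atf6b* and *Eif2ak3* were lower in all 3 cKO-labelled libraries, and the groups overlapped for *Xbp1*.

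At the translocon, both small subunits of Sec61 fell. *Sec61b* (Entrez ID 66212, chromosome 4, 47474661 to 47483233) had 35.7, 33.4 and 34.9 normalised reads in Ctrl and 22.3, 20.5 and 23.0 in cKO-labelled libraries (log2 fold change -0.64, SE 0.11, adjusted p 6.79e-05). *Sec61g* (Entrez ID 20335, chromosome 11, 16501638 to 16508484) had 12.7, 11.4 and 10.8 against 4.83, 6.90 and 7.12 (-0.80, SE 0.17, adjusted p 0.000738), from between 49 and 119 reads per library. Both sets of libraries were apart. *Sec61a1*, which encodes the pore-forming alpha subunit, was at 126 ± 9.61 and 119 ± 2.98 (-0.08, adjusted p 0.418), but was called lower when the length and GC trend was removed (-0.27, adjusted p 0.00467). The within-library ratio of *Sec61b* to *Sec61a1* went from 0.276 ± 0.0275 to 0.184 ± 0.00978 and that of *Sec61g* to *Sec61a1* from 0.0922 ± 0.00863 to 0.0529 ± 0.0117.

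The TRAP complex, which helps signal sequences open the channel, was also uneven. *Ssr1* (Entrez ID 107513, chromosome 13, 37971401 to 37994208; TRAP alpha) had 231, 249 and 236 normalised reads in Ctrl and 175, 181 and 169 in cKO-labelled libraries (-0.45, SE 0.073, adjusted p 5.00e-05). *Ssr2* (TRAP beta; Entrez ID 66256, chromosome 3, 88579608 to 88588420) had 64.3, 72.6 and 65.3 against 48.0, 44.4 and 45.7 (-0.54, SE 0.091, adjusted p 6.56e-05). *Ssr1* fell by 26.7% and *Ssr2* fell by 31.7%, without overlap of the groups. *Ssr3* (TRAP gamma) instead had 144, 163 and 155 normalised reads in Ctrl and 180.1, 185 and 177 in cKO-labelled libraries (0.23, SE 0.076, adjusted p 0.0168), a call that was lost under 5 of 18 alternatives, among them median centring (0.12, adjusted p 0.192). *Ssr1* relative to *Ssr3* was 1.55 ± 0.0457 in Ctrl and 0.970 ± 0.0130 in cKO-labelled libraries. *Ssr4* (-0.19), *Sec62* (0.08) and *Sec63* (0.17), the latter pair acting in post-translational import, did not pass, but *Sec63* did without Ctrl library 3 (0.26, adjusted p 0.0125).

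Of the 12 members with ERSE or ERSE-II, 2 were higher, 2 were lower and 8 did not pass, with a median log2 fold change of 0.06, beside the 27.7% higher and 25.0% lower of all genes. Of the 22 members whose promoter held neither, 4 were higher, 7 were lower and 11 did not pass (median -0.07). With scaling to total reads 7 carriers were higher and 2 were lower, against 10 and 5 of the other 22, and with median centring the counts were 1 and 3 against 1 and 9. The elements shown above for *Syvn1* and *Herpud1*, which fell, began 44 and 52 bases before the annotated start, and that of *Hspa5*, which did not pass, 65 bases before it.

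**Figure D5:**
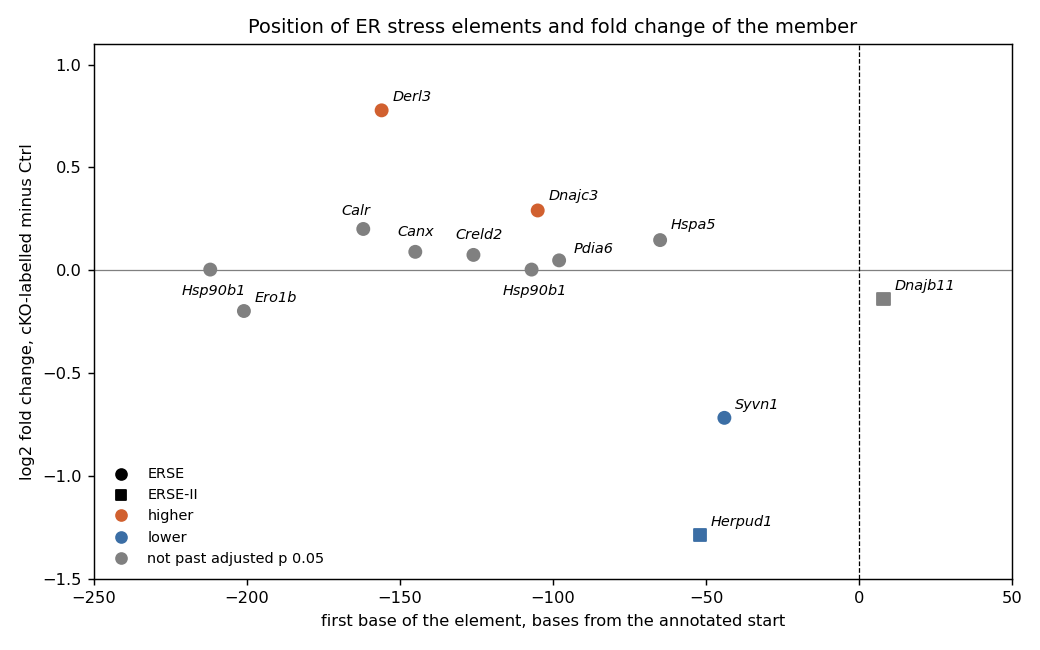
Position of the first base of each ERSE (circles) or ERSE-II (squares) relative to the annotated transcription start (horizontal axis, bases) against the log2 fold change of the gene (vertical axis). *Hsp90b1* appears at both of its elements, and the genes range from *Herpud1* (-1.29) to *Derl3* (0.78).

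Features of the annotated transcripts were counted for the members by call, with no test. In the principal GENCODE M21 transcript, an ATG upstream of the start codon was present in 0 of the 8 higher members, in 8 of the 11 lower members and in 8 of the 22 that did not pass. Among all genes the share was 51.6%, with 52.0% of higher and 51.0% of lower genes. A transcript annotated as a target of NMD was listed for 1 of the 8 higher, 3 of the 11 lower and 7 of all 41 members (17.1%), against 28.9% of all genes, 36.9% of higher genes and 22.0% of lower genes. *Herpud1*, which fell, has 2 such transcripts, and *Ern1*, which rose, has 0. The region after the stop codon (3′ UTR) of the principal transcript is 3892 bases long in *Ern1* and 622 in *Herpud1*. Its median was 994 bases over all genes, 967.5 in the higher members and 1055 in the lower members. An exon junction more than 50 bases after the stop codon was present in 0 of 41 principal transcripts (0.352% of all genes).

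Genes that work beside the members were examined as 6 lists with 98 genes measured, of which 28 were higher, 29 were lower and 41 did not pass (58.2% called, against 52.7% of all genes). The balance of higher and lower genes in these lists depended on the scaling and was not tested, and each is given below with its counts under median centring and under scaling to total reads. Of the UPR regulators and effectors other than the sensors, 7 of 20 were higher and 3 were lower (5 and 5 with median centring, 11 and 0 with total reads, and 5 and 6 with the length and GC trend removed). The transcription factor gene *Ddit3* (CHOP) was at 10.9, 9.35 and 10.6 normalised reads in Ctrl and 111, 108 and 108 in cKO-labelled libraries (log2 fold change 3.29, adjusted p 2.36e-14). The pseudokinase gene *Trib3* (3.15) and *Chac1*, which encodes a glutathione-degrading enzyme (2.69), followed in size, and all are known targets of the transcription factor ATF4. The *Ddit3* mRNA, like that of *Ern1*, has also been described as a substrate of NMD.

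In the list of other ERAD and retrotranslocation genes 4 of 21 were higher and 7 were lower (3 and 10 with median centring), a balance that turned to 7 higher and 3 lower with total reads. The ubiquitin-conjugating enzyme gene *Ube2g2* rose from 51.8 ± 3.47 to 119 ± 2.43 normalised reads (1.18, adjusted p 1.78e-09), while *Ube2j1*, which encodes another such enzyme of the ER membrane, fell from 117 ± 3.88 to 71.8 ± 1.30 (-0.70, adjusted p 6.3e-07). *Ngly1*, which encodes the cytosolic glycanase that deglycosylates ERAD substrates, rose by 0.59 on the log2 scale.

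Of 12 genes of the oligosaccharyltransferase list 1 was higher and 5 were lower, led by *Dad1* (-0.89) and *Ost4* (-0.64), and the counts were 0 and 7 with median centring and 2 and 2 with total reads. In the list of signal peptidase, signal recognition particle and accessory translocon genes 4 of 17 were higher and 7 were lower (3 and 8 with median centring), a balance that turned to 5 higher and 2 lower with total reads. The translocating chain-associated genes *Tram1* (-1.16, from 418 ± 11.6 to 187 ± 8.95) and *Tram2* (-1.13) fell, and *Sec61a2*, a paralogue of *Sec61a1*, rose from 18.6, 18.0 and 20.6 normalised reads to 58.6, 49.5 and 59.7, or 2.93 times the Ctrl mean (adjusted p 2.53e-09). *Sec61a2* thereby made up 13.2% ± 1.66 of the summed reads of both paralogues (SD, n = 3) in Ctrl and 31.9% ± 1.96 (SD, n = 3) in cKO-labelled libraries, a share that was computed after the values were seen and is given without a test.

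Glucosidase, calnexin cycle and lectin genes were higher in 7 of 11 and lower in 2 (5 and 2 with median centring, 9 and 1 with total reads), with *Mcfd2* (1.23), *Uggt2* (0.78, from levels below 5 normalised reads in each library) and *Erlec1* (0.68) as the largest. The call for *Uggt2* was lost under 4 of 17 alternatives, among them without Ctrl library 2 (0.51, adjusted p 0.133) and without cKO-labelled library 2 (0.52, adjusted p 0.145). Of the other disulfide and prolyl isomerase genes 5 of 17 were higher and 5 were lower (5 and 8 with median centring, 5 and 4 with total reads). *Fkbp7*, a prolyl isomerase gene, rose from 2.10 ± 0.175 to 13.2 ± 1.59 normalised reads (2.20, adjusted p 1.1e-08). *Txndc11*, a thioredoxin-domain gene, fell from 85.0 ± 9.96 to 32.5 ± 1.63 (-1.35, adjusted p 2.57e-09), and *Pdia5* rose from at most 0.152 to at least 2.29 normalised reads.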

How the data were processed

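Early LPre-B cells were sorted, and rRNA-depleted total RNA was sequenced with 3 libraries per group, assigned from the sample labels. Per the labels and the methods of the study, reads were trimmed with cutadapt 4.0, aligned to mm10 (GRCm38) with HISAT2 (single end, strand not used), counted per gene with featureCounts 2.0.1 and analysed with limma 3.48.0. The values that the authors deposited are a linear signal for each gene in each library. They equal the read count plus 0.5 over an effective library size expressed in 1e6 reads, and whole reads could be recovered for every value (tolerance 0.01 reads). They are called normalised reads.

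RefSeq gave symbols to 13008 of 13426 genes and GENCODE M21 to 3, and 415 stayed unnamed. The test was limma (version 3.58.1, R 4.3.3) applied to log2(value + 1), with a model that held only the group, eBayes with trend and robust settings, and Benjamini-Hochberg adjustment across the whole table. A gene was called at an adjusted p below 0.05. This scale understates changes of low genes, and SE are the moderated ones. The procedure was checked on simulated data. Replicate libraries showed more than counting noise (chi-square over degrees of freedom between 4.39 and 22.0), so all 6 were kept as separate samples. Deviations of same-numbered libraries correlated between -0.030 and 0.082, so the numbers were not taken to pair libraries.

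Values in each library were given for every called member, for the 5 sensors, *Hspa5* and *Hsp90b1*, and at most 3 called genes were named per related list by absolute log2 fold change. *Sel1l*, *P4hb* and *Sec61a1* were given more fully after their values were seen. Members, lists and markers were chosen with earlier results of these data known. Lists were described by counts and medians, with no test. The principal transcript was the one ranked first by APPRIS in GENCODE M21. Promoter windows came from RefSeq for 34 members, without *Hyou1*, *Sil1*, *Manf*, *Derl1*, *Atf6*, *Sec61a1* and *Ssr2*. The loci of 14 members overlap another annotated gene, among them *Sil1*, *Dnajc3*, *Pdia4*, *Syvn1*, *Edem1*, *Atf6*, *Eif2ak3* and *Ssr1*, and without strand the reads of both cannot be told apart. The settings varied were a replicate block, eBayes with no trend, median centring, quantile normalization, scaling to total reads, a pseudocount of 0.1, a minimum mean log2 value of 1 or 3, voom, edgeR 4.0.16 and DESeq2 1.42.0 on recovered reads, and the omission of each library. Removal of a length and GC trend was added after seeing the data.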

Additional observations from a re-analysis of the deposited data

How the results depend on the processing

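Of the 19 called members, 11 kept their direction and call under every alternative in which they were measured: *Herpud1*, *Syvn1*, *Edem1*, *Edem3*, *Sec61b*, *Sec61g*, *Ssr1*, *Ssr2*, *Ern1*, *Derl3* and *Sil1*. Of the 22 members that did not pass, 20 passed under at least 1 alternative, most often scaling to total reads. The number of higher members was 8, and became 4 with eBayes without trend, 3 with median centring, 13 with quantile normalization and 20 with scaling to total reads, settings under which the median of all genes (log2) was 0.01, -0.098, -0.046 and 0.19. Leaving out single libraries gave 5 to 11 higher and 11 to 12 lower members, with the 5 higher obtained without Upf1-cKO replicate 1. The number of lower members was 11, and became 17 when the length and GC trend was removed, which also turned *P4hb* from 0.02 to -0.17 (adjusted p 0.0467). With scaling to total reads *P4hb* was instead called higher (0.22, adjusted p 0.0277). Recovered reads gave 7 higher and 11 lower members with edgeR and 6 higher and 11 lower with DESeq2. With the replicate block 7 members were higher and 11 were lower; the shared numbers are not known to pair the libraries, and libraries did not correlate best with their own number throughout. *Derl3* did not reach the minimum mean log2 value of 3 and has no value there. Counts of 29 to 119 reads for *Derl3* and *Sec61g* limit the precision of their fold changes.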
